A study of Mus musculus with 16 samples.

Results

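The 33 genes described here are the UDP-glucuronosyltransferases of the Ugt1a, Ugt2a, Ugt2b and Ugt3a families (18 genes) and the sulfotransferases named Sult (15 genes) of mouse liver. They were chosen by name and by a count minimum. Of 54838 genes in the table, 42 are protein-coding and have a symbol that begins with Ugt1a, Ugt2a, Ugt2b, Ugt3a or Sult. Of these, 33 had at least 20 counts over the 16 libraries. Of the 9 below that minimum, Ugt2a1, Ugt2a2 and Sult6b2 had 0 counts, and Sult1c1, Sult3a2, Sult2a3, Sult2a4, Ugt1a8 and Sult6b1 had 1 to 17. The lowest members above it were Sult3a1, with 44 counts, and Sult2a6, with 89.

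The libraries are RNA-seq of liver tumors and of the liver tissue around them (peri-tumor) from 8 mice with the genotype HrasG12V, an activated form of the Ras oncogene. The 4 control mice and the 4 mice fed a traditional Chinese medicine (TCM) decoction each gave 1 library of each tissue, so that every group holds 4 libraries and all groups share the HrasG12V genotype. The labels add 3 months without saying of what, and they give no promoter for the transgene and no sex. The series text names the carcinogen DEN beside the Ras model and leaves unsaid whether these mice received it, and what the decoction held and its dose were not found in the labels.

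Total counts ran from 13947483 to 16194224 per library, and the 33 genes took 0.199% to 0.64% of them. Control mouse 4 stood apart from the other control mice: on the second principal component of all tested genes its peri-tumor library lay at 3.848 (the other 3 at -56.96 to -38.64) and its tumor library at -4.492 (the others at -28.73 to -19.18). Hepatocyte markers were high in every library, with a summed level of 80329.1 to 193842.0 CPM (counts scaled by library size and composition) over 9 genes, most of it Alb. Each mouse is 1 animal, so the spread between libraries is a spread between mice.

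Glucuronidation and sulfonation are the main conjugation reactions of the liver. UDP-glucuronosyltransferases sit in the endoplasmic reticulum and attach glucuronic acid from UDP-glucuronic acid to bilirubin, steroids, bile acids, thyroid hormone and drugs, while members of the Ugt3a family are known to use other sugar donors. Sulfotransferases of the Sult type work in the cytosol and move a sulfonate group from PAPS to phenols, catecholamines, steroids and hydroxylated bile acids. Both products are more soluble than their parents and leave the hepatocyte through transporters into bile or blood.

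Several of these genes share sequence, which bears on every count that follows. The Ugt1a genes lie as a nested array on chromosome 1 (GRCm38 chr1:88055388-88220002, plus strand, 165 kb, GENCODE M21), in which each gene has a first exon of its own that is joined to the same 4 exons, the first of which starts at position 88215044. The junctions are shown because they mark the point from which the members share exons. From there the transcripts used run 1311 bases in most members, 1318 in Ugt1a10 and 2316 in Ugt1a7c. Lower case is the last 30 coding bases of the gene's own exon, and capitals are the first 30 bases of the shared one:
Ugt1a10: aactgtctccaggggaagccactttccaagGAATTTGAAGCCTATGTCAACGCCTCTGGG
Ugt1a9: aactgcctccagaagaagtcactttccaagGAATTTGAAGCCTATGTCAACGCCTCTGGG
Ugt1a7c: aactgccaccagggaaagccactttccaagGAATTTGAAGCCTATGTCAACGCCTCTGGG
Ugt1a6b: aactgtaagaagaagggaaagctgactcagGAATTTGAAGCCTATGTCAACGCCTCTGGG
Ugt1a6a: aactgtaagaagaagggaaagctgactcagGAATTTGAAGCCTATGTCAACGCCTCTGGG
Ugt1a5: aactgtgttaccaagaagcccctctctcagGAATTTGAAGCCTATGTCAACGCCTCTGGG
Ugt1a2: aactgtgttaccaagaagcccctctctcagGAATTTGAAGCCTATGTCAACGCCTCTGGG
Ugt1a1: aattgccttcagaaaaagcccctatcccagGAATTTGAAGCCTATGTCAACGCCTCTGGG

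The part from the junction on makes up 57.9% to 71.7% of these Ugt1a transcripts, the highest value being that of Ugt1a7c. Ugt1a6a and Ugt1a6b, like Ugt1a2 and Ugt1a5, are identical up to the junction over the bases shown. How the authors' counting assigned reads of the shared exons is not given in the labels, so the values of single Ugt1a genes are uncertain, and the sum over the family is given beside them. Outside this array, 25% or more of the 50-base words of a transcript also occurred in other genes for Ugt2b5 (41.7%) and Ugt2b38 (37.4%), whose coding sequences are 97% identical, and for Sult2a2 (62.1%), Sult2a5 (34.5%) and Sult2a1 (33.2%). The single-gene values of these 5 are uncertain in the same way, and 8 members, among them Sult2a8, Sult2a7, Sult2b1, Sult4a1 and Ugt2b1, shared no word with another gene.

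The Sult2a genes, which make hydroxysteroid and bile acid sulfotransferases, lie within 870 kb of chromosome 7 (chr7:13623967-14494230). Their coding starts are shown because Sult2a1, Sult2a2 and Sult2a5 cannot be told apart by them. Each line gives the first 60 coding bases, with capitals where a base differs from Sult2a1:
Sult2a1: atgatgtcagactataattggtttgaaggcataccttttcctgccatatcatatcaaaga
Sult2a2: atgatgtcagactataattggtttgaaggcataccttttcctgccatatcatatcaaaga
Sult2a5: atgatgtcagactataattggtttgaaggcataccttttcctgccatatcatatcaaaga
Sult2a6: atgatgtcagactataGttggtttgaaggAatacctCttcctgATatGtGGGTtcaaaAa
Sult2a7: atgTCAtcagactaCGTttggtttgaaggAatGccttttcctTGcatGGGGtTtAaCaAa
Sult2a8: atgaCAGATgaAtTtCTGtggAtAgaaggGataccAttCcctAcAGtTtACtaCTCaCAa

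Sult2a1, Sult2a2 and Sult2a5 did not differ over these bases, and Sult2a6, Sult2a7 and Sult2a8 differed from them at 11, 18 and 26 bases. Reads from the first 3 genes can therefore be told apart only in other parts of the message.

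Levels between genes were compared on the authors' FPKM, which is per length. The length it implies was 5139 bases for Sult2a8 and 2331 for Sult1a1, where their longest transcripts have 2143 and 1370. Shares and ranks between genes therefore depend on the lengths the authors used. In control peri-tumor tissue the 18 Ugt genes summed to 1712.2, 1570.4, 1640.6 and 990 FPKM in mice 1 to 4, a mean of 1478.3 ± 331 (SD, n = 4). Ugt2b5 held the largest share of that sum (19.1% ± 2.67), followed by Ugt1a1, the bilirubin-conjugating enzyme (17.7% ± 4.74), Ugt2b1 (12.8% ± 3.94), Ugt2a3 (9.92% ± 0.513) and Ugt2b36 (8.92% ± 0.868). The shares of Ugt2b5 and Ugt1a1 lay within an SD of each other, and so did those of Ugt1a1 and Ugt2b1 within their summed SDs. The smallest shares were those of Ugt2b37 (0.102% ± 0.12) and Ugt1a10 (0.223% ± 0.0854). The 15 Sult genes summed to 272 ± 65.6 FPKM, of which Sult1a1, a phenol sulfotransferase, held 53.8% ± 9.56, Sult1d1, which acts on catecholamines and other phenols, 22.5% ± 4.26 and Sult2a8, a bile acid sulfotransferase, 19.4% ± 13.4.

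Tumors held less of the Ugt message and a differently composed Sult message. The Ugt sum was 703, 525, 745 and 615 FPKM in control tumors (mean 647 ± 97.7) and 917, 931, 630 and 638 in TCM tumors (779 ± 167), against 2030.0 ± 70.9 in TCM peri-tumor tissue, so that tumors and peri-tumor tissue did not overlap in either treatment. The Sult sum overlapped between the tissues of each treatment: it was 227 ± 50.5 FPKM in control tumors, 255 ± 24.1 in TCM peri-tumor tissue and 197 ± 34.2 in TCM tumors. Within the Sult sum, Sult1a1 made up 69.6% ± 6.5 in control tumors and, against 42.7% ± 2.97 in TCM peri-tumor tissue, 69% ± 5.16 in TCM tumors. Sult2a8 made up 2.76% ± 3.61 in control tumors, and 38.2% ± 2.74 in TCM peri-tumor tissue against 7.35% ± 4.99 in TCM tumors. Sult2a2 made up 0.0286% ± 0.0412 of the sum in control peri-tumor tissue and 7.62% ± 4.94 in control tumors. These shares describe the 4 groups and were not tested.

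**Figure D1:**
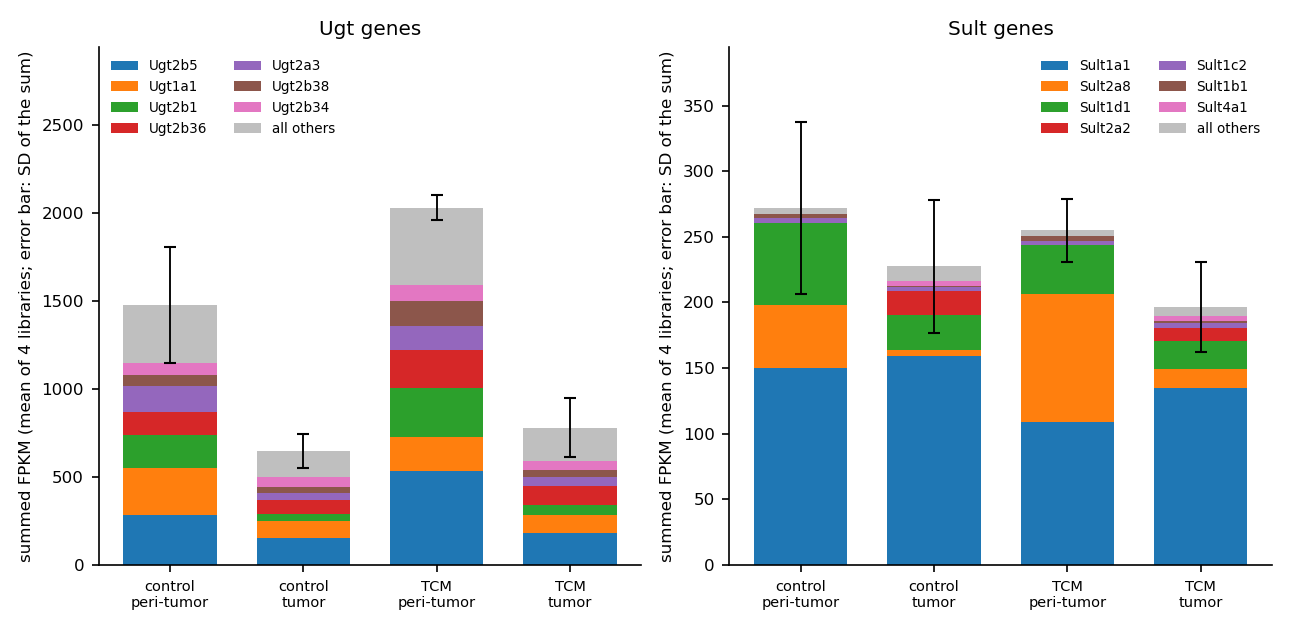
Summed FPKM of the 18 Ugt genes (left) and the 15 Sult genes (right) in the 4 groups, as stacked bars of group means with the SD of the sum (n = 4) as the error bar. The Ugt bars are lower in tumors (647 and 779 FPKM) than in peri-tumor tissue (1478.3 and 2030.0), while the Sult bars differ less, with smaller segments of Sult2a8 and Sult1d1 in tumors.

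Tumor was compared with peri-tumor tissue within each treatment, which is the first question the design implies. Tests were edgeR's quasi-likelihood test on the counts of all genes with Benjamini-Hochberg adjustment over 14865 genes, a gene is called at an adjusted p under 0.05, and fold changes are given as log2 ± SE. Of the 33 members 31 were tested, since Sult2a6 and Sult3a1 had too few counts. In control mice 17 of the 31 fell and 5 rose, where 43.2% of all tested genes were called (21.2% lower, 22% higher), and the members' median log2 fold change was -0.83 against 0.001 over all tested genes. In TCM mice 21 fell and 6 rose, where 32.9% of all genes were called (15.6% lower, 17.3% higher), with a median of -1.10 against 0.004. Of the 31 tested members, 18 in control mice and 27 in TCM mice had tumor and peri-tumor libraries that did not overlap. Over all tested genes, called or not, the share was 38.9% and 33.9%. These members were all called, and 22 were called in control mice.

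No Ugt gene rose in either treatment: 12 of 18 fell in control and 16 of 18 in TCM mice. Of the 13 tested Sult genes, 5 fell in each treatment, and 5 rose in control and 6 in TCM mice. The 6 that rose (Sult1e1, Sult2a1, Sult2a2, Sult2a5, Sult2b1 and Sult4a1) were those that passed the low-count filter only through tumor libraries. The filter thus favoured a rise in these 6, and their count is a description. Sult5a1, Sult2a7 and Ugt2b37 passed only through peri-tumor libraries. Among the 22 members that passed in both tissues, 15 fell and 0 rose in control and 18 fell and 0 rose in TCM mice. Of the 5 Sult genes among these, Sult1b1, Sult1d1 and Sult2a8 were lower in both treatments, and Sult1a1 and Sult1c2 were called in neither. Whether a tumor held fewer cells that make a transcript or less of it per cell cannot be told apart in these bulk samples.

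**Figure D2:**
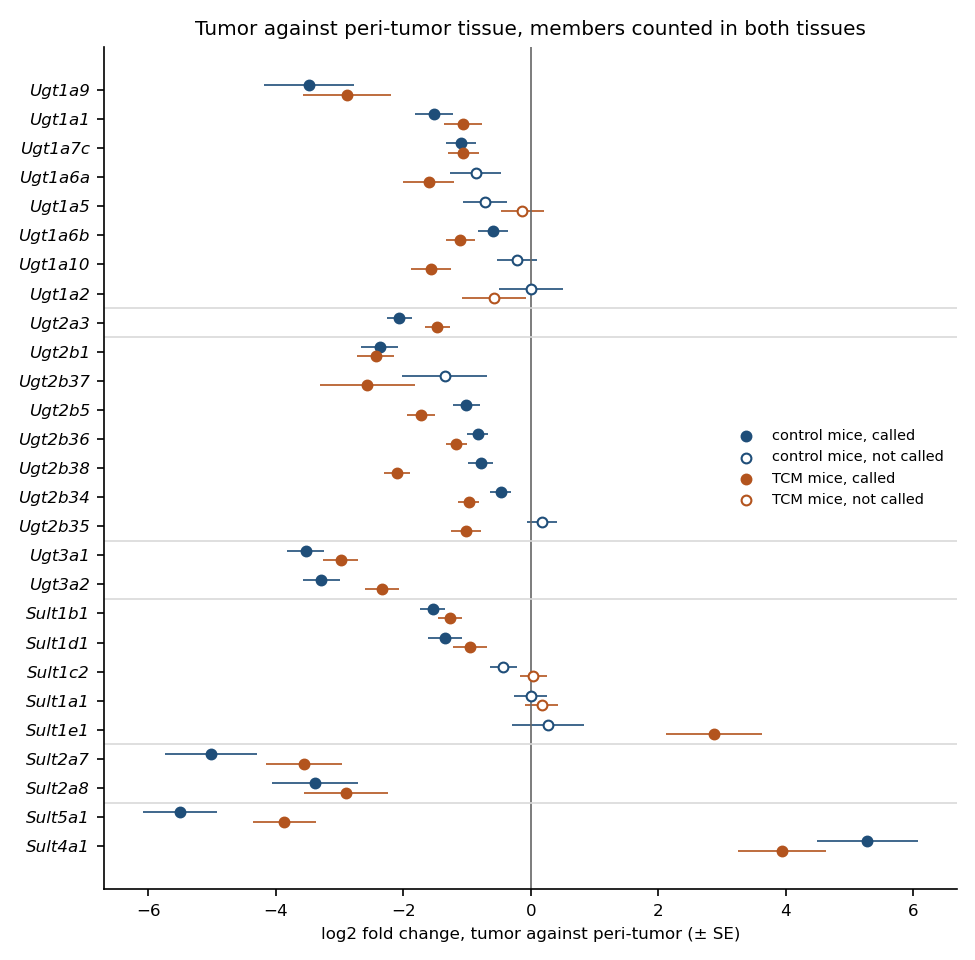
Log2 fold change of tumor against peri-tumor tissue (± SE) for 27 members in control (blue) and TCM (orange) mice, by family, with filled points for called genes. Sult2a1, Sult2a2, Sult2a5 and Sult2b1, with at most 4 counts in a peri-tumor group, are left out. All Ugt points but those of Ugt1a2 and Ugt2b35 in control mice lie below 0, and Sult4a1 lies far above it in both treatments.

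Ugt3a1 and Ugt3a2 fell with the lowest p of the Ugt genes in control mice. They are neighbours on chromosome 15 (chr15:9276888-9370955), with 93.2% identity over their coding sequence. Ugt3a2 had 311, 316, 299 and 293 CPM in the peri-tumor tissue of control mice 1 to 4 and 25.3, 24.4, 24.7 and 50.6 CPM in their tumors, a log2 fold change of -3.28 ± 0.28 (edgeR adjusted p = 4.38e-07). In TCM mice it had 348, 361, 396 and 315 CPM in peri-tumor tissue and 89.1, 91.5, 64.7 and 36 in tumors, a change of -2.33 ± 0.27 (edgeR adjusted p = 1.44e-05). The peri-tumor libraries lay close together, and the tumor of control mouse 4 was higher than the other 3 control tumors.

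Ugt3a1 had 78.9, 70.8, 85.6 and 82.9 CPM in control peri-tumor tissue and 4.69, 5.4, 7.13 and 10.2 in control tumors (-3.53 ± 0.29, edgeR adjusted p = 2.43e-07). Its TCM libraries held 119, 122, 147 and 94.1 CPM in peri-tumor tissue and 20, 16.6, 17.1 and 7.25 in tumors (-2.98 ± 0.28, edgeR adjusted p = 1.98e-06). The tissues were far apart in both treatments, and the sum of the pair fell by 3.33 ± 0.28 in control and by 2.47 ± 0.27 in TCM mice on the log2 scale.

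Ugt2a3, the only Ugt2a gene with counts, conjugates bile acids in particular. It had 364, 337, 341 and 211 CPM in control peri-tumor tissue and 96.3, 60.5, 72.4 and 71.4 in control tumors (-2.06 ± 0.20, edgeR adjusted p = 1.32e-06). TCM mice had 288, 287, 364 and 304 CPM around the tumors and 107, 142, 119 and 80.7 in them (-1.47 ± 0.20, edgeR adjusted p = 4.89e-05). Every peri-tumor library lay above every tumor library.

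In the Ugt1a array 4 of 8 genes fell in control and 6 of 8 in TCM mice. The Ugt1a sum, which also holds the few counts of Ugt1a8, fell by 1.35 ± 0.24 (edgeR adjusted p = 2.99e-04) and by 1.11 ± 0.24 (edgeR adjusted p = 0.00204) on the log2 scale. Ugt1a1 had 777, 772, 554 and 297 CPM in control peri-tumor tissue and 266, 194, 240 and 138 in control tumors (-1.52 ± 0.30, edgeR adjusted p = 8.43e-04). In TCM mice its levels were 493, 520, 455 and 397 CPM against 300, 284, 173 and 137 (-1.06 ± 0.30, edgeR adjusted p = 0.0129). Peri-tumor tissue of control mouse 4 was the lowest of its group and just above the highest control tumor.

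Ugt1a9, which conjugates phenols and many drugs, had the largest fall within the array in both treatments. It had 257, 183, 130 and 70.7 CPM in control peri-tumor tissue and 11.6, 0.554, 37.4 and 7.81 in control tumors (-3.48 ± 0.71, edgeR adjusted p = 9.11e-04), which became -4.61 without the tumor of control mouse 3. Its TCM libraries held 235, 186, 202 and 185 CPM against 42.1, 19.1, 21.1 and 27.2 (-2.88 ± 0.68, edgeR adjusted p = 0.00414). The control tumors differed widely among themselves, and the tissues did not overlap.

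Ugt1a6b, a phenol-conjugating member, had 54.7, 63.6, 80.4 and 45.3 CPM in control peri-tumor tissue and 45.6, 33.7, 54.6 and 27.8 in control tumors, which overlap (-0.59 ± 0.23, edgeR adjusted p = 0.0482). This call was lost when any of control peri-tumor libraries 1, 2 and 3 or control tumors 2 and 4 was left out (edgeR adjusted p 0.0575 to 0.165), without the low-count filter (edgeR adjusted p = 0.063) and with only the 2 groups fitted (edgeR adjusted p = 0.0714). In TCM mice Ugt1a6b had 92.5, 76.1, 85.3 and 77 CPM against 30.8, 52.4, 27.5 and 43.3 (-1.10 ± 0.23, edgeR adjusted p = 0.00183), with no overlap. Ugt1a7c fell in both treatments (-1.09 ± 0.24 and -1.06 ± 0.24).

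Ugt1a10, which had 6.68, 7.49, 14.6 and 8.92 CPM in control peri-tumor and 9.31, 8.51, 7.96 and 6.68 in control tumor tissue, was not called there (-0.21, edgeR adjusted p = 0.619). It fell in TCM mice, from 23, 19.6, 32 and 19 CPM to 3.64, 13.2, 7.42 and 7.25 (-1.57 ± 0.32, edgeR adjusted p = 0.00136). Ugt1a6a likewise was called only in TCM mice (-1.60 ± 0.40, and -0.87 in control mice), and the difference between treatments was not past the threshold for either gene (edgeR adjusted p = 0.131 and 0.534). Ugt1a2 and Ugt1a5 were called in neither treatment, with log2 fold changes from -0.72 to 0.01.

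The Ugt2b genes conjugate steroids, fatty acids and bile acids, and 7 of them lie with Ugt2a3, Sult1b1, Sult1d1 and Sult1e1 within 702 kb of chromosome 5 (chr5:86889767-87591594). Of the 7, 5 fell in control and 7 in TCM mice, and their sum fell by 0.90 ± 0.19 (edgeR adjusted p = 0.00124) and 1.52 ± 0.19 (edgeR adjusted p = 2.89e-05) on the log2 scale. Ugt2b1 fell by a similar amount in both: it had 485, 321, 710 and 420 CPM in control peri-tumor tissue and 63.7 to 116 across the 4 control tumors (-2.37 ± 0.29, edgeR adjusted p = 1.05e-05). In TCM mice the values were 770, 643, 984 and 693 CPM against 195, 176, 111 and 89.3 (-2.44 ± 0.29, edgeR adjusted p = 1.70e-05). The 2 tissues were apart in every library.

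Ugt2b5 had 675, 421, 646 and 384 CPM in control peri-tumor tissue and 278, 201, 314 and 261 in control tumors (-1.01 ± 0.21, edgeR adjusted p = 0.00112). Its TCM libraries held 1108.2, 995, 1174.9 and 998 CPM in peri-tumor tissue and 396, 391, 245 and 266 in tumors (-1.72 ± 0.21, edgeR adjusted p = 2.50e-05). It ranked first among the Ugt genes by FPKM in all 4 groups. Ugt2b36 had 450, 324, 435 and 287 CPM in control peri-tumor tissue and 243, 175, 225 and 195 in control tumors (-0.83 ± 0.16, edgeR adjusted p = 7.44e-04), and in TCM mice 609, 620, 748 and 645 against 291, 357, 277 and 241 (-1.17 ± 0.17, edgeR adjusted p = 7.78e-05).

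Ugt2b38, the near copy of Ugt2b5, ranged from 95 to 143 CPM in control peri-tumor tissue and stood at 70.8, 51.9, 79.8 and 75.8 in the 4 control tumors (-0.79 ± 0.20, edgeR adjusted p = 0.00437). The TCM libraries held 306, 281, 328 and 277 CPM against 93.2, 79.9, 51.7 and 53.6 (-2.10 ± 0.20, edgeR adjusted p = 3.08e-06). Tumor levels were alike in the 2 treatments, and the peri-tumor levels were not. Ugt2b34 fell in both (-0.47 ± 0.16 and -0.97 ± 0.16), but its call in control mice overlapped between tissues, was lost with the mouse as a block (edgeR adjusted p = 0.0509) and without any of control peri-tumor libraries 1, 2 and 3 or control tumor 2 (edgeR adjusted p 0.0542 to 0.0791). Ugt2b35 (-1.02 ± 0.23) and Ugt2b37 (-2.57 ± 0.75, and -3.15 without TCM tumor 4) fell in TCM mice. In control mice they were not called, at 0.18 and -1.35, though Ugt2b37 was lower in 4 of 4 tumors than in the same mouse's peri-tumor tissue and was called with the mouse as a block (edgeR adjusted p = 0.0224) and with limma-voom (adjusted p = 0.03). The difference between treatments was not past the threshold for either gene (edgeR adjusted p = 0.0776 and 0.571).

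Among the Sult1 genes, Sult1b1, which acts on thyroid hormone and small phenols, fell in both treatments. It had 14.8, 17.3, 14.7 and 15.7 CPM in control peri-tumor tissue and 6.14, 6.99, 4.56 and 3.82 in control tumors (-1.54 ± 0.20, edgeR adjusted p = 1.56e-05). TCM mice had 18.8, 21.2, 23.9 and 15.7 CPM against 7.89, 10.1, 8.86 and 6.08 (-1.27 ± 0.19, edgeR adjusted p = 1.33e-04). Its neighbour Sult1d1 had 184, 205, 180 and 80.1 CPM in control peri-tumor tissue and 88.1, 56.5, 57 and 52.9 in control tumors (-1.35 ± 0.27, edgeR adjusted p = 7.35e-04), with an overlap between peri-tumor library 4 and tumor 1. In TCM mice Sult1d1 had 104, 103, 127 and 82.4 CPM against 44.8, 71.1, 59.2 and 39.2 (-0.96 ± 0.27, edgeR adjusted p = 0.011).

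Sult1a1, the most abundant Sult gene by FPKM in all 4 groups, was not called, with log2 fold changes of -0.003 ± 0.26 in control and 0.17 ± 0.26 in TCM mice. Sult1c2 was called in neither treatment either (-0.43 and 0.04). Sult1e1, the estrogen sulfotransferase, rose in TCM mice (2.87 ± 0.76, edgeR adjusted p = 0.00822) and was not called in control mice (0.27, edgeR adjusted p = 0.738). It was near the limit of detection, with 0 to 2.56 CPM over the 16 libraries, and the difference between treatments was not past the threshold (edgeR adjusted p = 0.171). The sum of the Sult1 genes was not called in any comparison.

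The Sult2a genes split along the chromosome. Sult2a5, Sult2a2, Sult2a1 and Sult2a6, which follow each other, were at or near 0 in peri-tumor tissue and present in tumors, and their neighbours Sult2a8 and Sult2a7 were present in peri-tumor tissue and lower in tumors. Sult2a8 had 151, 116, 384 and 349 CPM in control peri-tumor tissue and 17.3, 6.37, 11.4 and 60.9 in control tumors (-3.38 ± 0.68, edgeR adjusted p = 8.23e-04), which became -4.43 without the tumor of control mouse 4. In TCM mice it had 564, 560, 586 and 445 CPM against 113, 98.6, 59.9 and 16.5 (-2.90 ± 0.66, edgeR adjusted p = 0.00309). Control peri-tumor tissue fell into a lower pair (mice 1 and 2) and a higher pair (mice 3 and 4), and no tumor library reached the lowest peri-tumor library of its treatment.

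Sult2a7 had 4.2, 6.28, 2.16 and 2.65 CPM in control peri-tumor tissue and 0, 0, 0.0642 and 0.358 in control tumors (-5.01 ± 0.72, edgeR adjusted p = 4.70e-05; -7.17 without both libraries of control mouse 4). Its TCM levels were 4.69, 4.58, 6.42 and 5.94 CPM against 1.03, 0.31, 0.36 and 0.0684 (-3.56 ± 0.59, edgeR adjusted p = 2.85e-04; -4.40 without TCM tumor 1). Its levels in tumors rest on few counts, and the direction was the same in all 8 mice.

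Sult2a2 had 0.191, 0, 0.0636 and 0 CPM in control peri-tumor tissue, 4 counts in all, and 13.6, 27.7, 6.04 and 4.95 in control tumors (7.50 ± 1.12, edgeR adjusted p = 1.54e-04; 8.79 without control peri-tumor library 1). All TCM peri-tumor libraries were at 0, and the TCM tumors had 4.01, 6.32, 17.8 and 1.57 CPM, at least 141-fold higher taking 3 counts over the group as the floor (edgeR adjusted p = 4.60e-04), and at least 79.3-fold without TCM tumor 3. Sult2a1 was at 0 in control peri-tumor tissue and had 3.67, 10.8, 2.18 and 2.56 CPM in control tumors, at least 96.6-fold higher (at least 58.3-fold without control tumor 2, edgeR adjusted p = 6.44e-05). With 2 counts in TCM peri-tumor tissue, its TCM tumors (2.25, 1.67, 5.77 and 1.03 CPM) were 76.6-fold higher, with a 95% exact interval of 20.9 to 638 that covers counting error only, and 49.2-fold higher without TCM tumor 3 (edgeR adjusted p = 6.32e-04).

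Sult2a5 was at 0 in all 8 peri-tumor libraries and had 3.48, 8.17, 1.99 and 1.37 CPM in control tumors and 0.425, 1.36, 6.05 and 0.82 in TCM tumors. It was at least 75.4-fold higher in control tumors (at least 47.1-fold without control tumor 2, edgeR adjusted p = 0.00204) and at least 40.1-fold in TCM tumors (at least 17-fold without TCM tumor 3, edgeR adjusted p = 0.00675). Sult2a6, not tested, was at 0 in all peri-tumor libraries and had 1.01, 1.87, 0.449 and 0 CPM in control tumors and 0.546, 0.434, 1.66 and 0 in TCM tumors. Of the control tumors, that of mouse 2 was the highest for each of the 4 genes, and of the TCM tumors that of mouse 3; how far the shared sequence of Sult2a1, Sult2a2 and Sult2a5 spreads 1 signal over several genes was not tested.

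**Figure D3:**
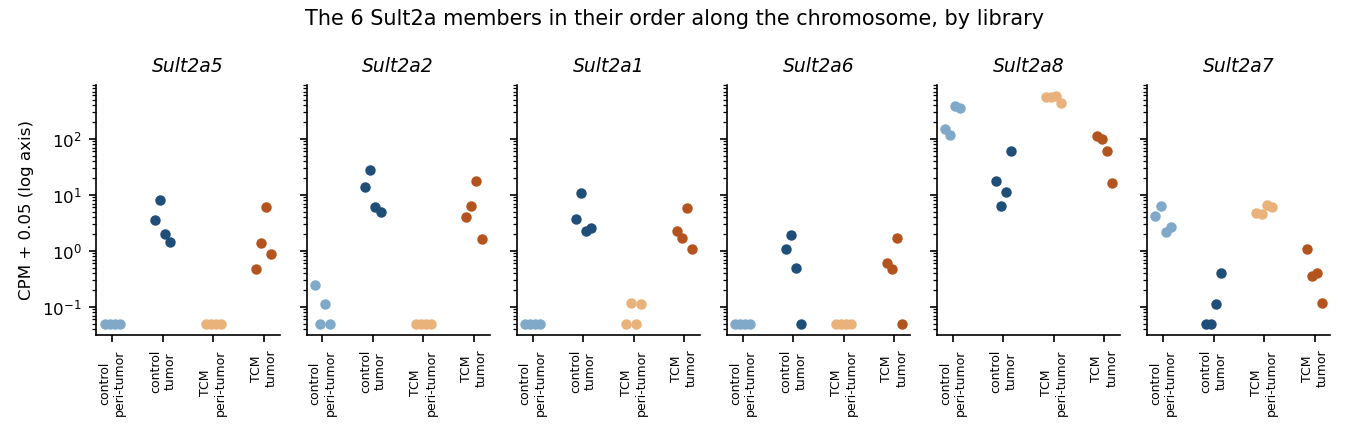
CPM of the 6 Sult2a members in every library, in their order along chromosome 7, on a log axis after adding 0.05, with control libraries in blue and TCM libraries in orange. Sult2a5, Sult2a2, Sult2a1 and Sult2a6 sit at the floor in most peri-tumor libraries and above it in most tumors, and Sult2a8 and Sult2a7 show the opposite.

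Sult2a8 makes up most of the family's counts. The Sult2 sum, which also holds the few counts of Sult2a3 and Sult2a4, fell by 2.38 ± 0.48 (edgeR adjusted p = 8.59e-04) in control and 2.63 ± 0.48 (edgeR adjusted p = 6.42e-04) in TCM mice on the log2 scale. Sult2b1, which sulfonates cholesterol and pregnenolone and is best known from skin, lies apart from the cluster (chr7:45729983-45784669). It was at 0 in all 8 peri-tumor libraries and had 2.53, 2.77, 1.22 and 2.44 CPM in control tumors and 2.61, 2.42, 2.59 and 3.01 in TCM tumors. That is at least 46.5-fold higher in control (edgeR adjusted p = 6.09e-06) and at least 52-fold in TCM tumors (edgeR adjusted p = 1.13e-05), with all 8 tumors above 0 and no sequence shared with another gene.

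Sult4a1, a brain-type member with no well-defined substrate, had 0.191, 0.423, 0.0636 and 0.348 CPM in control peri-tumor tissue and 6.59, 10.4, 13.5 and 10.6 in control tumors (5.28 ± 0.80, edgeR adjusted p = 7.47e-05). In TCM mice it had 1.06, 0, 1.43 and 0.767 CPM against 12, 3.04, 6.99 and 28.2 (3.95 ± 0.69, edgeR adjusted p = 4.58e-04), which became 3.19 without TCM tumor 4. Sult5a1 moved the other way: it had 8.53, 7.07, 6.1 and 8.43 CPM in control peri-tumor tissue and 0, 0.0692, 0 and 0.537 in control tumors (-5.50 ± 0.58, edgeR adjusted p = 2.67e-06; -7.98 without control tumor 4). Its TCM libraries held 9.45, 8.5, 6.65 and 5.24 CPM against 0.91, 0.31, 0.432 and 0.342 (-3.87 ± 0.50, edgeR adjusted p = 3.28e-05), and the tissues were apart in both treatments.

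The second question is how the decoction bears on the same genes. In peri-tumor tissue 5 members rose and 1 fell of 31 with TCM, where 14.1% of all tested genes were called (6.71% higher, 7.35% lower), and the median log2 fold change was 0.35 against -0.004. The 5 were Ugt genes, 4 of them of the Ugt2b family, and their groups did not overlap. Among the 31 tested members, called or not, 8 were higher and 1 was lower with no overlap, against 18% of all tested genes. The peri-tumor libraries are the same as in the tumor comparisons, so the changes here and there are not independent.

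Ugt2b38 had the lowest p of the members here and rose from 95 to 143 CPM in the control mice to 277 to 328 in the TCM mice (1.31 ± 0.20, edgeR adjusted p = 0.00119). Ugt2b5, which shares sequence with it, rose from 384 to 675 CPM to 995 to 1174.9 (1.01 ± 0.21, edgeR adjusted p = 0.00671). Ugt2b36 rose from 287 to 450 to 609 to 748 CPM (0.81 ± 0.16, edgeR adjusted p = 0.00588), and Ugt2b35 from 165, 118, 201 and 149 to 448, 288, 333 and 354 CPM (1.17 ± 0.23, edgeR adjusted p = 0.00529). Ugt2b36 and Ugt2b35 share at most 0.725% of their words with other genes. The sum of the Ugt2b genes rose by 0.83 ± 0.19 (edgeR adjusted p = 0.0105), from 2370.5, 1744.9, 2614.2 and 1661.5 to 3864.5, 3318.4, 4274.9 and 3503.0 CPM.

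Ugt2b34 (0.46, edgeR adjusted p = 0.0726) and Ugt2b1 (0.67, edgeR adjusted p = 0.112) had positive values that were not called. With DESeq2 Ugt2b34 was called (adjusted p = 0.0383). Ugt3a1 was higher in each TCM library (94.1 to 147 CPM) than in each control library (70.8 to 85.6). It was not called (0.60, edgeR adjusted p = 0.123), but was with only the 2 groups fitted (edgeR adjusted p = 0.0278). Ugt1a10, a member known from the gut in humans, rose in peri-tumor tissue (1.31 ± 0.31, edgeR adjusted p = 0.0137), while the Ugt1a sum did not change past the threshold (0.05 ± 0.23, edgeR adjusted p = 0.921). Sult1e1 was the member that fell, with 75 counts over the control and 8 over the TCM libraries (-3.06 ± 0.75, edgeR adjusted p = 0.0154). Sult1d1 was not called with all libraries (-0.64, edgeR adjusted p = 0.112). It was called without control peri-tumor library 4 (-0.87, edgeR adjusted p = 0.00997) and with limma-voom (-0.78, adjusted p = 0.0207). Without both libraries of control mouse 4, Sult1d1 (-0.87, edgeR adjusted p = 0.009) and Sult1a1 (-0.57, edgeR adjusted p = 0.0285) fell. Sult2a8 was higher in each TCM library (445 to 586 CPM) than in each control library (116 to 384), and was not called (1.11, edgeR adjusted p = 0.252).

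Markers of Kupffer cells, the resident macrophages of the liver, were lower beside these changes. With TCM 4 of 6 fell in peri-tumor tissue, Clec4f by 1.51 (edgeR adjusted p = 0.00984), Vsig4 by 1.36 (edgeR adjusted p = 0.0182), Cd5l by 1.84 (edgeR adjusted p = 0.0048) and Fcna by 1.15 (edgeR adjusted p = 0.0324) on the log2 scale. The list summed to 230 to 292 CPM in TCM and 455 to 1016.1 in control peri-tumor tissue. The 9 hepatocyte markers summed to 105060.0 to 154018.3 against 80329.1 to 117598.8 CPM, most of it Alb, which overlap, and 0 of the 9 were called. The part of the Kupffer cell markers in the rise of the Ugt2b genes was not tested.

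**Figure D4:**
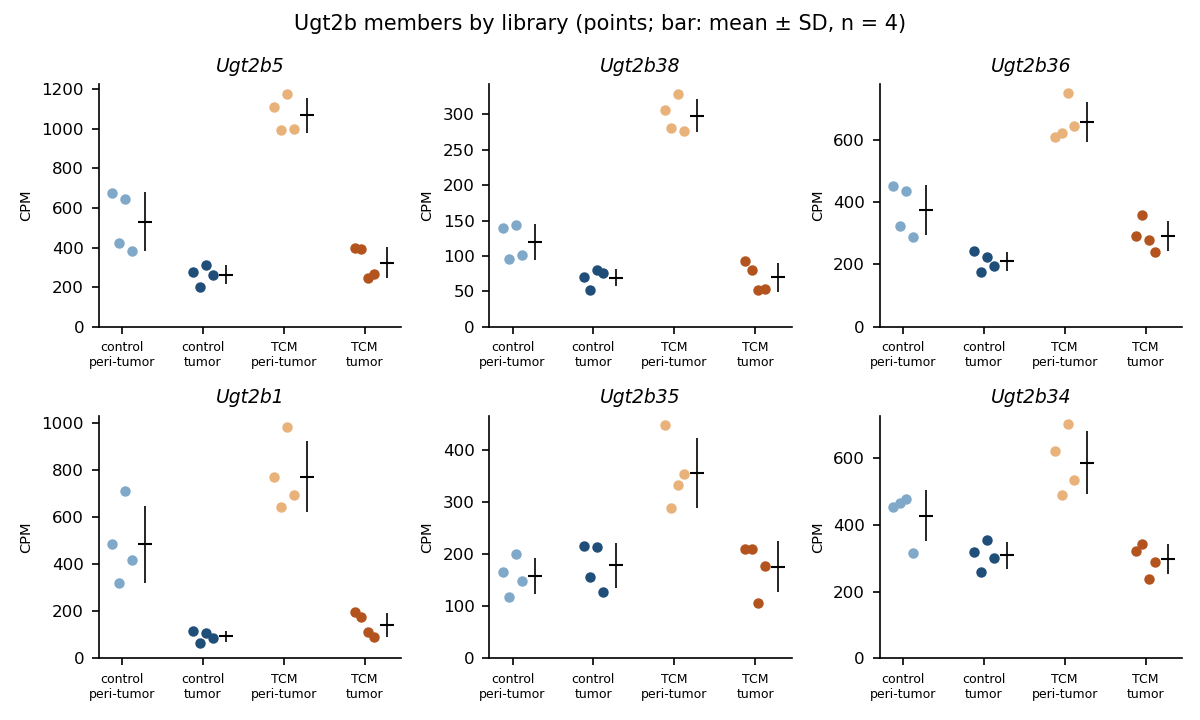
CPM of 6 Ugt2b members in every library of the 4 groups, with the mean and SD (n = 4) beside the points. For Ugt2b5, Ugt2b38, Ugt2b36 and Ugt2b35 all TCM peri-tumor libraries lie above all control peri-tumor libraries, and the tumors of the 2 treatments overlap.

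In tumors the decoction went with a rise of the Ugt3a pair, 2 of 31 members, where 7.28% of all tested genes were called (4.55% higher, 2.72% lower). Ugt3a1 rose by 1.15 ± 0.27 (edgeR adjusted p = 0.0215) and Ugt3a2 by 1.17 ± 0.27 (edgeR adjusted p = 0.0174) on the log2 scale, and the sum of both by 1.17 ± 0.26 (edgeR adjusted p = 0.017). For both genes TCM tumors 1 to 3 lay above all control tumors and TCM tumor 4 did not, so the groups overlapped (15.9% of all tested genes did not). Ugt3a1 lost its call without any of control tumors 1 and 2 or TCM tumors 1 and 3 (edgeR adjusted p 0.0545 to 0.0675), and Ugt3a2 without control tumor 2 or 3 (edgeR adjusted p = 0.0579 and 0.0512). Both lost it when only the 2 tumor groups were fitted (edgeR adjusted p = 0.0772 and 0.0728). Beside these rises, 3 of 7 recruited macrophage markers (Trem2, Gpnmb and Ms4a7) and the neutrophil marker S100a8 fell with TCM in tumors. S100a8 had 2.34, 2.91, 1.41 and 34.4 CPM in control tumors 1 to 4, and the neutrophil marker S100a9 was not called (edgeR adjusted p = 0.0674). Trem2 (6.02 CPM) and Gpnmb (45 CPM) were also highest in control tumor 4, while Ms4a7 was not. The macrophage list summed to 461 to 1326.5 CPM against 998 to 2392.8 in control tumors. The part of these markers in the result was not tested.

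Several other members changed their call in tumors with the libraries or the tool. Without both libraries of control mouse 4, 6 members rose, with Sult5a1 (4.12, edgeR adjusted p = 0.00607), Sult2a8 (2.66, edgeR adjusted p = 0.0108), Sult2a7 (3.97, edgeR adjusted p = 0.0352) and Ugt2a3 (0.59, edgeR adjusted p = 0.0496) beside the Ugt3a pair. With all libraries these 4 had log2 fold changes of 1.62, 1.58, 1.95 and 0.58 and were not called. Ugt1a5 was the only member whose tumor groups did not overlap (92.6 to 187 CPM with TCM, 76.7 to 86.6 in control), against 15.9% of all tested genes. It was not called (0.83, edgeR adjusted p = 0.149). No Sult gene was called in tumors with edgeR, 4 of 13 had an unadjusted p under 0.05, and DESeq2 called 1 and limma-voom 2.

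**Figure D5:**
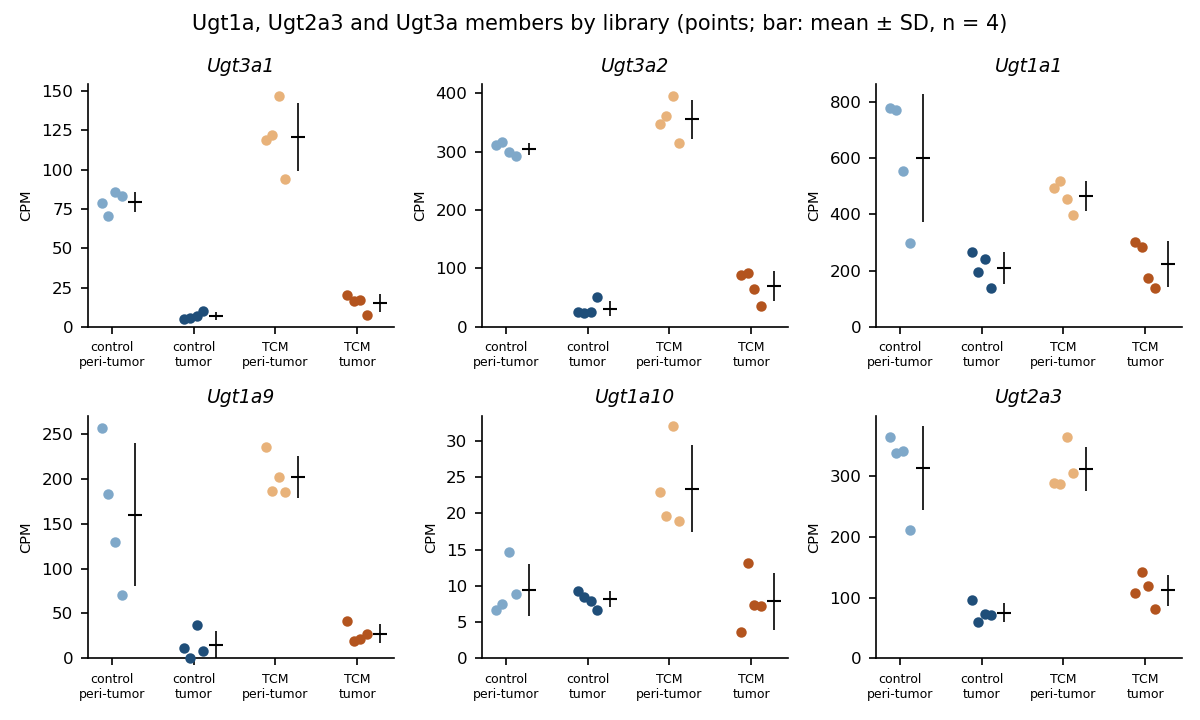
CPM of Ugt3a1, Ugt3a2, Ugt1a1, Ugt1a9, Ugt1a10 and Ugt2a3 in every library, with the mean and SD (n = 4) beside the points. Ugt3a1, Ugt3a2 and Ugt2a3 show separate tissues in both treatments, Ugt1a10 stands high only in TCM peri-tumor tissue, and the control peri-tumor points of Ugt1a1 and Ugt1a9 are widely spread.

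Whether the tumor change itself differed between treatments was tested as an interaction. Ugt2b38 was the only member called of 31, where 1.11% of all tested genes were: its fall was larger in TCM mice by 1.31 ± 0.28 on the log2 scale (edgeR adjusted p = 0.0367). The call was lost when any of 8 libraries, 3 of them controls, was left out (edgeR adjusted p 0.0506 to 0.0789) and without the low-count filter (edgeR adjusted p = 0.0552). All 7 Ugt2b genes had a negative interaction, and both Ugt3a genes a positive one (0.55 and 0.95), of which Ugt3a2 was called without control tumor 4 (1.30, edgeR adjusted p = 0.0482). None of the 7 family sums was called in the interaction with edgeR, and 3 had an unadjusted p under 0.05. DESeq2 and limma-voom each called Ugt2b38 and Ugt2b35.

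The spread of Sult2a8 in control peri-tumor tissue ran with Cux2 and Bcl6, picked from 8 listed genes of growth hormone action after their values were seen. That pathway sets male and female expression patterns in rodent liver. Cux2, a repressor normally high in female liver, had 65.9, 72.5, 3.56 and 0.0697 CPM in control peri-tumor libraries 1 to 4 and 0.151 to 0.661 in TCM peri-tumor libraries. Bcl6, known as high in male liver, had 4.01, 6.53, 54 and 73.9 CPM in the control and 9.05, 18.7, 11.3 and 34 in the TCM libraries. Of the others listed, Socs2, Igf1 and Cish lay higher and Stat5b lower in control mice 1 and 2 than in 3 and 4. The gap between the pairs was small for Cish (10.3 against 8.77 CPM) and Stat5b (56.5 against 57.6 CPM). Ghr and Stat5a overlapped between the pairs. Sult2a8 was low in the same pair of control mice, 1 and 2, but highest in the TCM libraries (445 to 586 CPM), where Bcl6 was below its level in control mice 3 and 4. Sult3a1, known as a female-type sulfotransferase, had 2.6 CPM in control peri-tumor library 2, 0.0636 in library 1 and 0 in the other 14. As in males, Ddx3y was counted in each of the 4 libraries (587 to 883 reads) and Xist at most 1 time. The part of this pattern in the results above was not tested.

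Promoters of 27 members were found in RefSeq (GRCm38.p6), 30 windows of 250 bases before a start site, since some genes have several. A nuclear receptor hexamer (AGGTCA on either strand) was present in 10 of 30 (33.3%), against 14% of all 32851 promoters. The core of the AHR element (GCGTG) was in 13.3% against 28.2%, and the NRF2 pattern TGACNNNGC in 0 of 30 against 10.2%. The last 60 bases before the start of the Ugt2b genes that rose with TCM in peri-tumor tissue are shown with those of the 3 that did not, with AGGTCA in capitals:
Ugt2b38: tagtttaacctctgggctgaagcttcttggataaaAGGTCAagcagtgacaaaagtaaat
Ugt2b5: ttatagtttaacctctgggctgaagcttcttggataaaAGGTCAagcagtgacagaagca
Ugt2b36: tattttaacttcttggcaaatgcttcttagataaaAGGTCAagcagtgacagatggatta
Ugt2b35: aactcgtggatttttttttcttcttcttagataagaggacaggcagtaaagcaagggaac
Ugt2b37: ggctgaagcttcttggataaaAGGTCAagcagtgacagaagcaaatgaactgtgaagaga
Ugt2b1: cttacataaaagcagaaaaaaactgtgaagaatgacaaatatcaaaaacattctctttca
Ugt2b34: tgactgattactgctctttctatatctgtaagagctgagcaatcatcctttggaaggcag

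The hexamer lay 22 to 39 bases before the start in Ugt2b5, Ugt2b36, Ugt2b38 and Ugt2b37, within a stretch the 4 genes have in common, and Ugt2b35 had one only farther up, at 215 bases. Ugt2b37, which has the same stretch, had 0.967 to 5.58 CPM in control and 1.62 to 3.4 CPM in TCM peri-tumor tissue and was not called. A match is a string of letters and says nothing of binding.

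The genes around the conjugating enzymes were followed in lists, whose counts stand beside those of all tested genes: 22% rose and 21.2% fell in control tumors, 17.3% and 15.6% in TCM tumors, and 6.71% and 7.35% with TCM in peri-tumor tissue. Of 9 genes of UDP-glucuronic acid supply and breakdown, 3 rose and 0 fell in control tumors (median log2 0.24), no larger a share than the 43.2% called of all genes: Ugdh, which makes UDP-glucuronic acid (1.17, edgeR adjusted p = 0.00237), Pgm2 (1.41, edgeR adjusted p = 3.82e-05) and the transporter gene Slc35b1 (0.59, edgeR adjusted p = 0.00546). In TCM tumors 2 rose and 1 fell, and Ugdh was not called (-0.25). With TCM, 3 rose in peri-tumor tissue: Ugdh (0.93, edgeR adjusted p = 0.0316), Slc35d2 (0.75, edgeR adjusted p = 0.00633) and Slc35d1, which carries UDP-glucuronic acid into the endoplasmic reticulum (0.42, edgeR adjusted p = 0.0416).

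Of 11 tested genes of PAPS supply and the sulfate cycle, 3 rose and 5 fell in control tumors (median log2 -0.46), and 1 rose and 3 fell in TCM tumors (-0.32), where the share called was near the 32.9% of all genes. Suox, the sulfite oxidase, fell by 2.61 (edgeR adjusted p = 6.46e-07) and Papss2, the PAPS synthase of liver, by 0.84 (edgeR adjusted p = 3.49e-04) on the log2 scale, and the sulfate transporter gene Slc26a2 rose by 1.53 (edgeR adjusted p = 2.15e-05). Of 9 transporter genes for conjugates, 2 rose and 4 fell in control tumors (median log2 -0.34) and 0 rose and 6 fell in TCM tumors (-0.96). The uptake carriers Slco1b2 (-3.63, edgeR adjusted p = 1.48e-05) and Slco2b1 (-2.61, edgeR adjusted p = 2.55e-08) fell, and the export pump genes Abcc4 (1.97, edgeR adjusted p = 4.45e-04) and Abcc2 (0.91, edgeR adjusted p = 7.01e-04) rose in control tumors. Abcg2, another export pump, rose with TCM in peri-tumor tissue (1.10, edgeR adjusted p = 9.61e-04).

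Of 18 regulator genes, 2 rose and 9 fell in control tumors (median log2 -0.53) and 1 rose and 6 fell in TCM tumors (-0.18), the latter again near the 32.9% called of all genes. Nr1i3, which encodes the drug sensor CAR, fell by 2.89 (edgeR adjusted p = 5.02e-06), Nr1h4, the bile acid receptor, by 1.61 (edgeR adjusted p = 1.28e-05) and Nr1i2, the drug sensor PXR, by 0.89 (edgeR adjusted p = 2.56e-05) in control tumors. In peri-tumor tissue with TCM 0 rose and 4 fell, among them Nr1i3 (-1.45, edgeR adjusted p = 0.00747). Of 7 genes known to be induced by drugs or oxidants, 3 rose with TCM in peri-tumor tissue: Cyp2b10 (4.59, edgeR adjusted p = 1.95e-04), from 0 to 0.826 to 8.12 to 13.1 CPM, Cyp3a11 (2.15, edgeR adjusted p = 5.64e-04) and Gclc, from 184 ± 35.2 to 521 ± 97.1 CPM (edgeR adjusted p = 0.00149). With TCM in tumors 2 of these 7 rose and 0 fell, where 7.28% of all tested genes were called. They were Cyp3a11 (2.43, edgeR adjusted p = 6.11e-04) and Cyp2b10 (2.82, edgeR adjusted p = 0.0381). Of 8 genes of growth hormone action, 0 rose and 3 fell in control tumors, among them Igf1 (-3.16, edgeR adjusted p = 7.09e-07) and Ghr (-2.28, edgeR adjusted p = 2.81e-07).

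Markers of other cells moved with the tissue beside the falls and rises in tumors, and their part in them was not tested. The summed CPM of 9 hepatocyte markers, most of it Alb, did not fall, with 80329.1 to 117598.8 in control peri-tumor tissue and 115311.5 to 163554.8 in control tumors. Gene by gene, 3 of the 9 rose and 3 fell in control tumors (median log2 -0.19). Alb rose there by 0.61 (edgeR adjusted p = 0.0491), while Apoa2, Cps1 and Tat fell. The 7 recruited macrophage markers summed to 45.9 to 96.5 CPM in control peri-tumor and 998 to 2392.8 in control tumor tissue, most of it Spp1, which the cholangiocyte list also holds. Of 6 tested cholangiocyte markers, Sox9 (1.10), Spp1 (5.59) and Tspan8 (7.03) rose and Krt19 (-3.04) fell in control tumors, and the list summed to 43.8 to 104 CPM in peri-tumor and 1201.7 to 2594.3 in tumor tissue. The 6 intestinal markers summed to 4.47 to 56.9 CPM in control peri-tumor tissue and 171 to 393 in control tumors, with Cdx2 at 0 in all groups. Of 5 kidney tubule markers, 4 were at 0 in control tissue. Of 7 stellate and fibroblast markers, 5 rose and 1 fell in control tumors (median log2 2.69), and 5 rose and 2 fell in TCM tumors. Among 7 endothelial markers 2 rose and 2 fell in control tumors, and among 5 erythroid markers 0 rose and 3 fell. Kupffer cell markers were lower in control tumors, at 121 to 183 CPM against 455 to 1016.1. In TCM mice 6 of the 7 recruited macrophage and 3 of the 6 tested cholangiocyte markers rose in tumors, and 3 of the 6 Kupffer cell markers fell.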

How the data were processed

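Tumor and peri-tumor liver of 8 mice gave 16 RNA-seq libraries, from total RNA and a stranded mRNA kit per the labels' protocols. The authors deposited unscaled counts of reads per gene, per the file headers, and FPKM values per library, which matched count over length and total within 0.00193% over 9176 genes. Builds mm9 and mm10 are named in the submitters' processing notes. Aligner, counter and the handling of reads with several matches: not given in the sources used here. Gene models are GENCODE M21 (GRCm38), promoters RefSeq GRCm38.p6. No column was left out, and 115 genes without a symbol (at most 0.0171% of a library) stayed in the fit.

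Counts were tested with edgeR 4.0.16 (R 4.3.3): TMM factors, filterByExpr (count minimum 10), quasi-likelihood F tests in 1 fit of 4 groups (12 residual degrees of freedom), Benjamini-Hochberg adjustment over 14865 genes and calls under 0.05. CPM are TMM-scaled, the SE of a log2 fold change is its size over the root of F, and ± in levels is the SD of 4 libraries. The test was tried on simulated data. Family sums replaced the members by 1 row. The alternatives tried were DESeq2 1.42.0, limma-voom 3.58.1 with sample weights, RLE factors, 2 other filters, only the groups compared, the replicate block, each library left out, and both libraries of control mouse 4 left out. Depth of 13947483 to 16194224 counts sets the floor of 3 counts over a group; intervals and floors cover counting error only.

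The 2 tissues of a mouse carry the same animal code in the labels and are paired by it. After removal of group means, same-mouse libraries correlated at 0.063 to 0.23 in control and 0.043 to 0.24 in TCM mice. Numbers do not pair mice across treatments. No 2 libraries of a group were copies (chi-square per degree of freedom of 15.62 or more).

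Members and lists were chosen with earlier results of these data known. Values per library are given for up to 4 members a family: those with at least 5 CPM in the highest group and a call, by lowest p in any comparison. Other called members are named with their fold change. Ugt2b35, Sult1e1, Sult2a1, Sult2a5, Sult2a6, Sult2b1, Sult3a1, Cux2, Bcl6 and other genes outside this rule were given values after those were seen. A regulator gene that the counts of its list include, and a promoter motif that was also searched, are not reported here.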

Additional observations from a re-analysis of the deposited data

Results flagged for a closer look

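In 8 of 156 groups of 4 values, 1 library lay apart from the other 3 beyond Dixon's limit, where chance gives about 1 in 20. Control tumor 4 had 50.6 CPM of Ugt3a2 (the others 24.4 to 25.3), 60.8 CPM of the Ugt3a sum (29.8 to 31.8) and 0.537 CPM of Sult5a1 (0 to 0.0692). From the same mouse, peri-tumor library 4 had 315 CPM of Ugt2b34 (the others 455 to 478). Control tumor 1 had 88.1 CPM of Sult1d1 (52.9 to 57). Control peri-tumor library 2 had 31.5 CPM of Ugt1a2 (10.6 to 13.2) and 2.6 CPM of Sult3a1 (0 to 0.0636). TCM tumor 3 had 6.05 CPM of Sult2a5 (0.425 to 1.36).

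The tumor effect on Ugt2b38 differed between treatments, by -1.31 on the log2 scale (TCM minus control, SE 0.28, edgeR quasi-likelihood adjusted p = 0.0367). It fell in 4 of 4 mice of both treatments.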

How the results depend on the processing

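Leaving out 1 library at a time gave 20 to 25 called members for the tumor effect in control mice and 27 to 28 in TCM mice, and 6 to 7 for TCM in peri-tumor tissue. For TCM in tumors the count of 2 became 1 with only the groups compared (Ugt1a5, 0.81, edgeR adjusted p = 0.04, in place of the Ugt3a pair), 5 with DESeq2, 5 with limma-voom and 6 without both libraries of control mouse 4, and 0 to 5 without 1 library (0 without control tumor 2, 5 without control tumor 4 or TCM tumor 4). For the difference of the tumor effect the count of 1 became 0 without the filter, 2 with DESeq2, 2 with limma-voom and 4 without both libraries of control mouse 4, and 0 to 4 without 1 library. Called family sums went from 1 to 1 to 2 for TCM in peri-tumor tissue (2 without control peri-tumor library 4 or without both libraries of control mouse 4) and to 0 to 2 for TCM in tumors. The cause was not tested. Over the fold changes of called members, 876 values kept direction and call, 29 kept the direction without the call, and 0 reversed. Sums in place of members give families, not members, and were read as such. With the replicate block (mouse for the tumor effects, replicate number for TCM) the counts were 22, 27, 6, 3 and 1; it took the call from Ugt2b34 and gave it to Ugt2b37 in control mice and to Sult1b1 in tumors with TCM, and changed no other call.

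No scaling moved the median of all genes by over 0.1 on the log2 scale. Members near the floor of 3 counts over a group, and single Ugt1a, Ugt2b5, Ugt2b38 and Sult2a values, are limited by depth or by shared sequence.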
